A study of Mus musculus with 12 samples.

Results

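The genes described here are 10 axon guidance genes: the secreted repellents Slit2 and Slit3, their receptors Robo1 and Robo2, the class 3 semaphorins Sema3a, Sema3c and Sema3e, the semaphorin co-receptors Nrp1 and Nrp2 (the neuropilins), and netrin-1 (Ntn1). They were picked by gene symbol from the array's annotation, because earlier results of these same data had shown that they differ between brown and white fat cells. All 10 were found among the 18194 genes with a probe set of their own, and 9 were bright enough to be tested. Robo2 was not.

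The study measured RNA in 4 groups of cultured mouse cells with 3 arrays each. Brown adipocytes came from a brown fat cell line harvested on day 8, after 3 days of induction with 0.5 mM IBMX, 1 µM dexamethasone, 20 nM insulin, 125 µM indomethacin and 1 nM T3, and then insulin and T3 alone. Brown preadipocytes were the same line on day 0, 2 days after confluence, with none of these agents. White adipocytes were 3T3-L1 cells, an established mouse fibroblast line that is widely used as a model of white fat, harvested on day 10 after 3 days of 0.5 mM IBMX, 1 µM dexamethasone and 1 µg/mL insulin. They then had insulin alone and at the end plain medium. White preadipocytes were 3T3-L1 cells on day 0, 2 days after confluence, without the agents. Both lines grew in DMEM with penicillin and streptomycin, the brown line with fetal bovine serum and 3T3-L1 with fetal calf serum. Line, induction mix and day of harvest therefore differ together between brown and white adipocytes and cannot be told apart. The serums are named differently, and whether they differed is not known here. The labels give neither the origin of the brown line nor whether the 3 samples of a group are separate cultures, so every p-value measures the spread between these samples only.

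Slits, semaphorins and netrins were first known as cues that steer growing axons. Slits bind Robo receptors on the cell that reads the cue. Most class 3 semaphorins bind a neuropilin, which has only a short cytoplasmic tail and hands the signal to a plexin. Sema3E is the exception and binds plexin D1 directly. Netrin-1 is read by Dcc, neogenin and the Unc5 receptors. The same families act outside the nervous system: neuropilins also bind vascular endothelial growth factors, and in mouse fat a fragment of Slit2 and Slit3 itself have been linked to thermogenesis and nerve supply.

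Values are array signals, scaled by the authors so that the 2% trimmed mean of every array is 500, and differences are on the log2(signal + 16) scale with the standard error (SE) of a limma fit. A gene was called where its p, adjusted by the Benjamini-Hochberg method over all 13753 genes tested, was under 0.05. Signals of different genes cannot be set against each other on this array, so each gene is compared with itself across groups. For the members the values are a description and no p is given, since results of these groups chose them. Each array's 40th percentile, which lay between 32.9 and 41.2 signal units, served as the mark below which a probe set was treated as dim. Correlations of arrays were 0.978 to 0.982 within groups and 0.885 to 0.935 between groups, and no library stood apart. The adipocyte markers (Adipoq, Fabp4, Pparg, Cebpa, Slc2a4, Lipe and Cidec) summed to 89860 to 93250 in brown adipocytes, against 48130 to 56880 in brown preadipocytes, and to 109600 to 123300 in white adipocytes, against 8557 to 9384 in white preadipocytes. The brown preadipocyte cultures thus already carried much adipocyte marker signal on day 0. Brown markers (Ucp1, Cidea, Ppargc1a, Cox7a1, Cox8b) summed to 26520 to 28900 in brown adipocytes, 576.3 to 667.4 in brown preadipocytes, 6116 to 7465 in white adipocytes and 72.54 to 87.83 in white preadipocytes. The white adipocyte sum was mostly Cox8b (mean 5065, against 3685 in brown adipocytes) and Cox7a1 (1506, against 14770). Ucp1 averaged 6.14 in white and 382 in brown adipocytes, and was dim on every white array. Cidea averaged 63.3 and 6754, and Ppargc1a 327 and 2472. None of 7 endothelial markers passed the filter, and 4 of 6 macrophage, 5 of 6 neuronal, 3 of 3 Schwann cell and 3 of 6 muscle markers did. The neuronal markers summed to 724.2 to 886.3 in brown adipocytes, 745.7 to 812.1 in brown preadipocytes, 378.9 to 387 in white adipocytes and 628.4 to 701.2 in white preadipocytes. Most of this was Map2, with means of 673, 654, 121 and 554 in that order. Between brown and white adipocytes Snap25 (8.55 and 72.5), Stmn2 (15.8 and 43.1) and Rbfox3 (53.9 and 77.2) went the other way. Syp (66.1 and 48.3) went with the sum, and Tubb3 was dim on every array. The Schwann cell markers summed to 297.3 to 330.5, 241.4 to 326.9, 133.9 to 194.4 and 110.5 to 165.2 in the same order of groups. In the brown line S100b was lower in adipocytes (114, against 209), while Sox10 (97.1, against 31.4) and Mbp (106, against 43.4) were higher. S100b was also no lower in white adipocytes (123) than in brown ones. The macrophage markers summed to 386.5 to 411.2, 427.5 to 530.5, 455.7 to 571.9 and 651.7 to 725.5. Cd14 had the order of that sum, with means of 130, 216, 236 and 452. Cd68 did not, being highest in brown adipocytes (109) and lowest in white preadipocytes (35.1). The part of these sums in the differences below was not tested.

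Slit2, the secreted Robo ligand, was a gene of the white line. Its signals were 5.317, 33.98 and 1.784 in brown adipocytes and 9.928, 24.35 and 11.1 in brown preadipocytes, against 534.5, 379.3 and 506.9 in white adipocytes and 2577, 2534 and 2593 in white preadipocytes. Every brown array was below every white array, the 2 brown groups overlapped, and the white preadipocytes were far above the white adipocytes. White adipocytes averaged 474 ± 82.8 and white preadipocytes 2568 ± 30.5 (SD, n = 3 each), a signal 5.42-fold lower after differentiation and a log2 difference of -2.41 (SE 0.338). The brown line's change was -0.19 (SE 0.338), not called and within dim signals. Without brown adipocyte replicate 2 it was -0.65 and called. Since every brown array was below its 40th percentile, the gap between the lines is given as a bound, set against that percentile or the dim signal, whichever was higher: Slit2 was at least 12-fold lower in brown than in white adipocytes and at least 65.4-fold lower in brown than in white preadipocytes. The files hold no detection calls, so the percentile stands for background in this and the other bounds. The fitted log2 differences, -4.18 and -6.41, depend on the pseudocount. The other 2 Slit2 probe sets were much dimmer and had the same order of the white groups over the brown ones, with white changes of -1.51 and -1.38. Fewer cells expressing a gene and less RNA per cell cannot be told apart in bulk RNA, here or for any gene below.

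The Slit2 promoter, 250 bases before to 50 after the annotated start (RefSeq, GRCm38.p6, chr5:47982905-47983204, plus strand), is shown because it was the only member promoter with a TATAAA. Capitals mark that TATAAA, at -28 from the start, and 3 copies of GGGCGG, the core of a GC box.
Slit2: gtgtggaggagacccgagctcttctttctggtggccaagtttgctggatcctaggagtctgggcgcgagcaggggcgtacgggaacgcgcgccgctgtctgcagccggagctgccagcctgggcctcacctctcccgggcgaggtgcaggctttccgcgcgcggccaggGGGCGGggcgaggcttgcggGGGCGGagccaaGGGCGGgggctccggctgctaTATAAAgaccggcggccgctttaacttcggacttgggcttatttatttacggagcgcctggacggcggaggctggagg
The 300 bases are 68% G or C with 30 CpG, against a median of 52.7% and 7 CpG over 32851 promoters of that table. TATAAA was present on either strand in 13.6% of those promoters and GGGCGG in 35.7%. The Slit2 window lies inside the annotated gene, which begins at chr5:47981291, and no window at that outer start was searched. Array probes lie near the 3′ end of transcripts, so these data do not tell which start was used, and a match is a run of letters, not a site shown to be bound.

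Slit3, the second Slit on the list, went opposite ways in the 2 lines. Its signals were 29.39, 25.36 and 4.793 in brown adipocytes, all below the 40th percentile, against 123.9, 118.3 and 116.3 in brown preadipocytes. They were 392.5, 392.7 and 417.4 in white adipocytes, against 102.3, 164.8 and 123 in white preadipocytes. The preadipocytes of the 2 lines overlapped, while all white adipocyte arrays were above and all brown adipocyte arrays below every preadipocyte array. The log2 difference with differentiation was -2.0 (SE 0.259) in the brown line and 1.54 (SE 0.259) in the white line. In white cells the 2 Slits thus differed in direction, Slit2 being lower and Slit3 3.08-fold higher in adipocytes. Against the dim brown adipocytes only bounds can be given: Slit3 was at least 3.05-fold lower there than in brown preadipocytes and at least 10.2-fold lower than in white adipocytes, where the fitted log2 difference was -3.62 (SE 0.259). Between preadipocytes of the 2 lines it differed by -0.09 (SE 0.259). Only 1 probe set measures Slit3.

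Robo1, a receptor for both Slits, was bright in brown preadipocytes and dim in the other 9 arrays. It had 7.162, 7.335 and 1.906 in brown adipocytes, against 289, 288.4 and 317.8 in brown preadipocytes. It had 2.735, 7.986 and 12.96 in white adipocytes, against 1.269, 2.268 and 2.092 in white preadipocytes. The 3 bright arrays stood wholly apart, with a mean of 298 ± 16.8 (SD, n = 3), and the other groups were below the 40th percentile on every array. Robo1 was at least 7.61-fold lower in brown adipocytes than in brown preadipocytes and at least 8.92-fold higher in brown than in white preadipocytes. The fitted log2 differences, -3.88 (SE 0.152) and 4.14 (SE 0.152), depend on the pseudocount. The white difference of 0.40 (SE 0.152) was called, but between dim signals, so no size is read from it, and without white adipocyte replicate 3 it was 0.25 and not called. It was lost in 10 of the 12 fits that each left out 1 array. Robo1 passed the filter only through its 3 brown preadipocyte arrays, and the other 2 Robo1 probe sets were dim and flat, with brown changes of 0.04 and -0.02. The brown pattern therefore rests on 1 of 3 probe sets. Robo2, the sister receptor, was between 1.252 and 18.58 on all 12 arrays, below the 40th percentile on each, and was not tested.

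**Figure D1:**
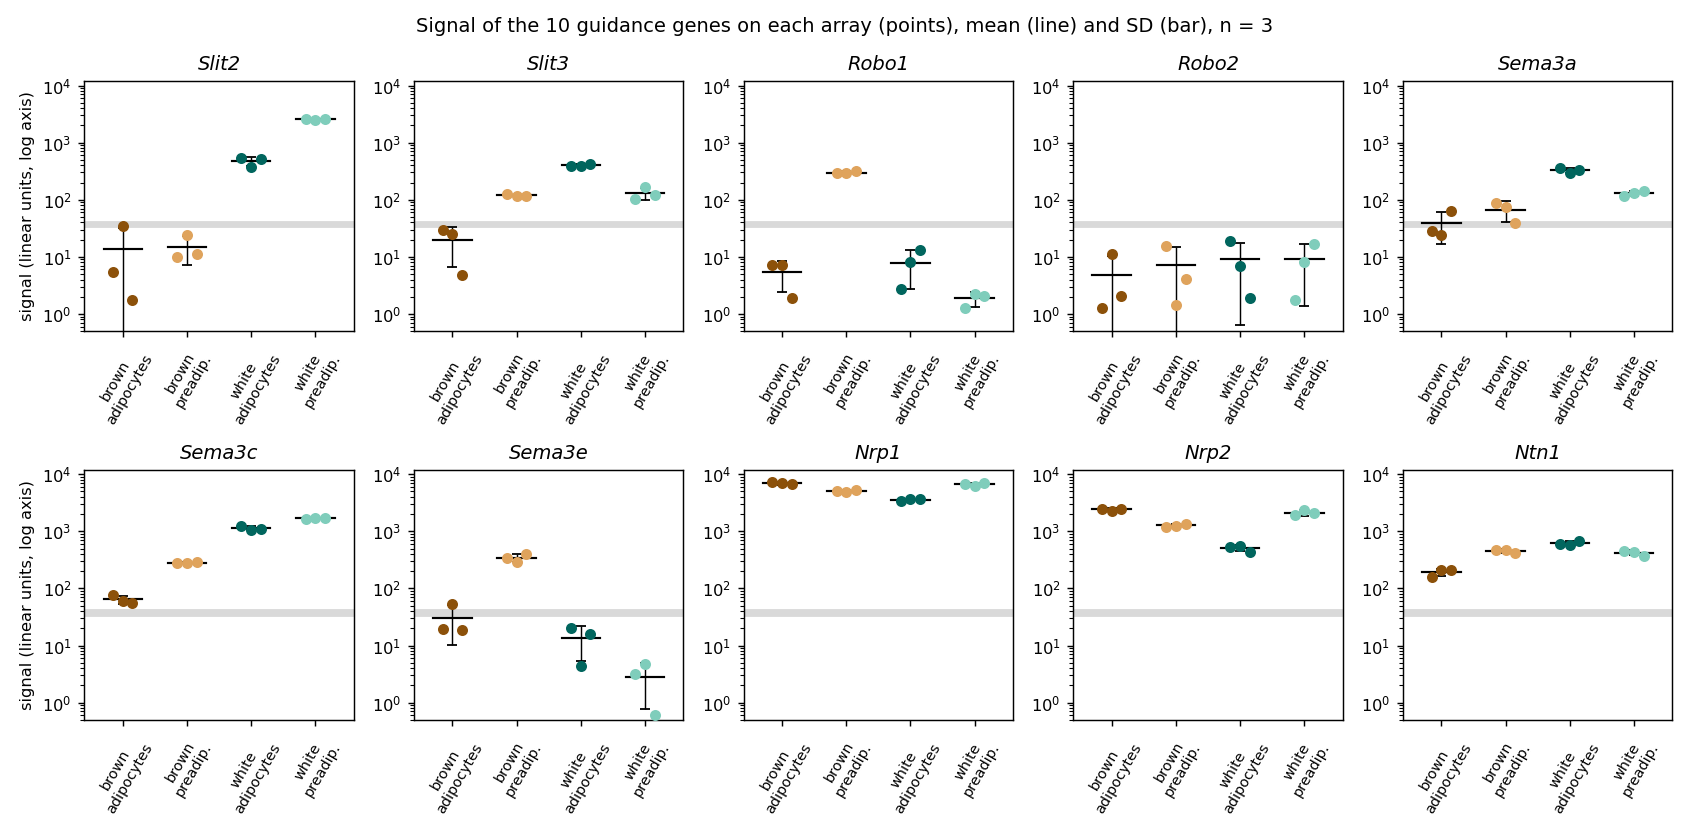
Array signal (log axis) of each of the 10 genes in brown adipocytes, brown preadipocytes, white adipocytes and white preadipocytes; points are arrays, and the bar and whiskers are the mean and SD of 3 arrays, a whisker that would pass 0 running off the axis. The grey band is the range of the arrays' 40th percentiles, 32.9 to 41.2. Slit2 is above the band on the 6 white arrays, Robo1 on the 3 brown preadipocyte arrays and Robo2 on none.

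Among the semaphorins, Sema3e followed Robo1. Sema3E is the ligand of plexin D1 and a repellent of growing vessels. Its signals were 19.17, 53.61 and 18.48 in brown adipocytes, against 338.5, 294.1 and 403.7 in brown preadipocytes. They were 19.94, 4.338 and 16.21 in white adipocytes, against 3.23, 4.66 and 0.6083 in white preadipocytes. Brown preadipocytes were above all other arrays, and the 2 adipocyte groups overlapped. The signal was at least 10.3-fold higher in brown than in white preadipocytes, whose arrays were all below the 40th percentile. The fitted log2 difference there was 4.26 (SE 0.288), and the brown change was -3.03 (SE 0.288), with 1 of 3 brown adipocyte arrays above that percentile, so that both sizes depend on the pseudocount. The white difference of 0.61 (SE 0.288) was not called. All 4 Sema3e probe sets were lower in brown adipocytes than in brown preadipocytes, with log2 differences of -1.19 to -3.03. Sema3e passed the filter through 4 arrays, 3 of them brown preadipocytes.

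The promoters of Robo1 (chr16:72662899-72663198, plus strand) and Sema3e (chr5:14025026-14025325, plus strand; both GRCm38.p6, RefSeq) are set side by side because these 2 genes shared the brown preadipocyte pattern. Capitals mark GGGCGG or its complement.
Robo1: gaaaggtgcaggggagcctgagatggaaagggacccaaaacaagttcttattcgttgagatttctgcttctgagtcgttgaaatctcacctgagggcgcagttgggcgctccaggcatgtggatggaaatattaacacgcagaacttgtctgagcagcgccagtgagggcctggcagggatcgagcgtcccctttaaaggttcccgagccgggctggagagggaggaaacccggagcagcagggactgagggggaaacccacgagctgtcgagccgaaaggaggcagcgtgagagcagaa
Sema3e: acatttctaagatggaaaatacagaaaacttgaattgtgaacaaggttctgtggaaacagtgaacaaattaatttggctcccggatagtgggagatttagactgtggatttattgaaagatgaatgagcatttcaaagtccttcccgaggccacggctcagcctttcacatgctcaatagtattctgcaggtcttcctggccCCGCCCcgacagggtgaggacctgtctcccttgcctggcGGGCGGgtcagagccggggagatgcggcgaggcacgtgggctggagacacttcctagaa
The Robo1 window lies inside the annotated gene (chr16:72027518-73047491), and no window at the gene's outer start was searched. It holds none of the motifs searched on both strands. These were TATAAA (the TATA box), CCAAT (the CCAAT box), GGGCGG (the GC box core), CACGTG (an E-box), TTGCGNAA (a palindromic C/EBP motif) and the palindromic early B-cell factor motif. The Sema3e window holds 2 matches to GGGCGG, at -48 and -9, and a CACGTG at 24, printed in lower case. CACGTG occurs in 7.15% of all promoters. The windows are 57% G or C with 15 CpG for Robo1 and 50.7% with 11 CpG for Sema3e.

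Sema3c, a class 3 semaphorin known to be secreted by human fat, was the member for which all 4 groups stood apart. It had 76.39, 60.56 and 56.57 in brown adipocytes, against 278.2, 279.1 and 294.8 in brown preadipocytes. It had 1249, 1071 and 1108 in white adipocytes, against 1639, 1682 and 1728 in white preadipocytes. It was lower in adipocytes of both lines, with a log2 difference of -1.90 (SE 0.0946) in the brown line, a 4.40-fold lower signal, and of -0.55 (SE 0.0946) in the white line, a 1.47-fold lower one. The larger difference was between lines: the signal was 17.7-fold lower in brown than in white adipocytes and 5.93-fold lower in brown than in white preadipocytes. A second, dimmer probe set gave -0.50 in the brown and -0.63 in the white line, so the direction was shared but the larger brown change was not. For brown against white cells it gave -1.43 in adipocytes and -1.55 in preadipocytes, against -3.85 and -2.50 for the main probe set. The direction was thus shared here too, but neither the size nor the wider gap in adipocytes was.

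Sema3a, the founding class 3 semaphorin, signals through neuropilin-1 and A-type plexins. Its signals were 28.11, 23.85 and 63.55 in brown adipocytes, against 89.21, 74.15 and 38.82 in brown preadipocytes. They were 362.7, 290.2 and 326.4 in white adipocytes, against 117.2, 129.9 and 141.7 in white preadipocytes. The brown groups overlapped because brown adipocyte replicate 3 was high and brown preadipocyte replicate 3 low, and the brown difference of -0.63 (SE 0.282) was not called. Without brown adipocyte replicate 3 it was -0.94, and without brown preadipocyte replicate 3 it was -0.91, both called. With hybridization control scaling it was -0.80 and with the mean of probe sets -0.50, again called. White adipocytes were 2.52-fold higher than white preadipocytes, a log2 difference of 1.23 (SE 0.282). The log2 difference between brown and white adipocytes was -2.72 (SE 0.282), and that between brown and white preadipocytes -0.85 (SE 0.282). The preadipocyte call was lost without brown preadipocyte replicate 3 (-0.58), white preadipocyte replicate 2 (-0.85) or white preadipocyte replicate 3 (-0.79). Dimmer Sema3a probe sets gave brown changes of -0.40 and -0.09 and white changes of 1.37 and 0.72. Between brown and white preadipocytes they gave -0.04 and -1.44.

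Both neuropilins differed in direction between the lines, higher in adipocytes of the brown line and lower in adipocytes of the white line. Nrp1, co-receptor for Sema3A and for VEGF-A, had 7262, 6901 and 6631 in brown adipocytes, against 5090, 4853 and 5221 in brown preadipocytes. It had 3427, 3694 and 3630 in white adipocytes, against 6880, 6122 and 6927 in white preadipocytes. White adipocytes were the lowest group, below every other array, and brown adipocytes overlapped white preadipocytes at the top. The log2 change was 0.45 (SE 0.07) in the brown line and -0.89 (SE 0.07) in the white line, so that Nrp1 was 1.93-fold higher in brown than in white adipocytes.

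Nrp2, co-receptor for other class 3 semaphorins and for VEGF-C, had the same order of groups with wider gaps. It had 2508, 2306 and 2510 in brown adipocytes, against 1211, 1245 and 1361 in brown preadipocytes. It had 535, 548.7 and 440.7 in white adipocytes, against 1911, 2357 and 2056 in white preadipocytes. The brown change was 0.93 (SE 0.104), a 1.92-fold higher signal, and the white change -2.02 (SE 0.104), a 4.15-fold lower one. Nrp2 was 4.80-fold higher in brown than in white adipocytes, but 1.66-fold lower in brown than in white preadipocytes. Each neuropilin has 4 probe sets and all 8 gave these signs in both lines. For Nrp1 the brown changes were 0.21 to 0.52 and the white ones -0.58 to -1.03, and for Nrp2 the ranges were 0.80 to 0.93 and -1.42 to -2.26.

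The 2 neuropilin promoters (RefSeq, GRCm38.p6; Nrp1 at chr8:128358823-128359122 and Nrp2 at chr1:62703067-62703366, both plus strand) are shown because these genes had the same order of groups. Capitals mark GGGCGG or its complement; in Nrp2 a pair of adjacent copies share a base.
Nrp1: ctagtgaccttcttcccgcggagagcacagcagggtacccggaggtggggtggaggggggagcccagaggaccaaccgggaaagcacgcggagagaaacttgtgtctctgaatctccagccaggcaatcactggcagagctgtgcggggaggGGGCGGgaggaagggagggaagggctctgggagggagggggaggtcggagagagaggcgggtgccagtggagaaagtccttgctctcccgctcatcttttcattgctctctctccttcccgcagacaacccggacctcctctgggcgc
Nrp2: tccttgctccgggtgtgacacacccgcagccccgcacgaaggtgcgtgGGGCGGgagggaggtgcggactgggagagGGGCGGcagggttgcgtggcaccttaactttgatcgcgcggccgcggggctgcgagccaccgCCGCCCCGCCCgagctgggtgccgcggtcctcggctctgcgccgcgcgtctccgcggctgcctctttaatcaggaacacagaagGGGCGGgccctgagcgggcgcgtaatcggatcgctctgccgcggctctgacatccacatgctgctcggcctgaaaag
Nrp1 holds 1 match, at -98, and Nrp2 holds 5, between -202 and -27. GGGCGG was found in 6 of the 9 member genes with a promoter in the table (Nrp1, Nrp2, Sema3c, Sema3e, Slit2 and Slit3), CACGTG in Robo2 and Sema3e, and the CCAAT box, the C/EBP motif and the early B-cell factor motif in none. The CCAAT box occurs in 37.4% of all promoters, the C/EBP motif in 0.798% and the early B-cell factor motif in 0.904%. The Nrp2 window is 70.7% G or C with 37 CpG and the Nrp1 window 64% with 14 CpG. The Nrp1 window lies inside the annotated gene, which begins at chr8:128358591, and the outer start was not searched. The same holds for the Sema3a window, in a gene that begins at chr5:13124822.

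**Figure D2:**
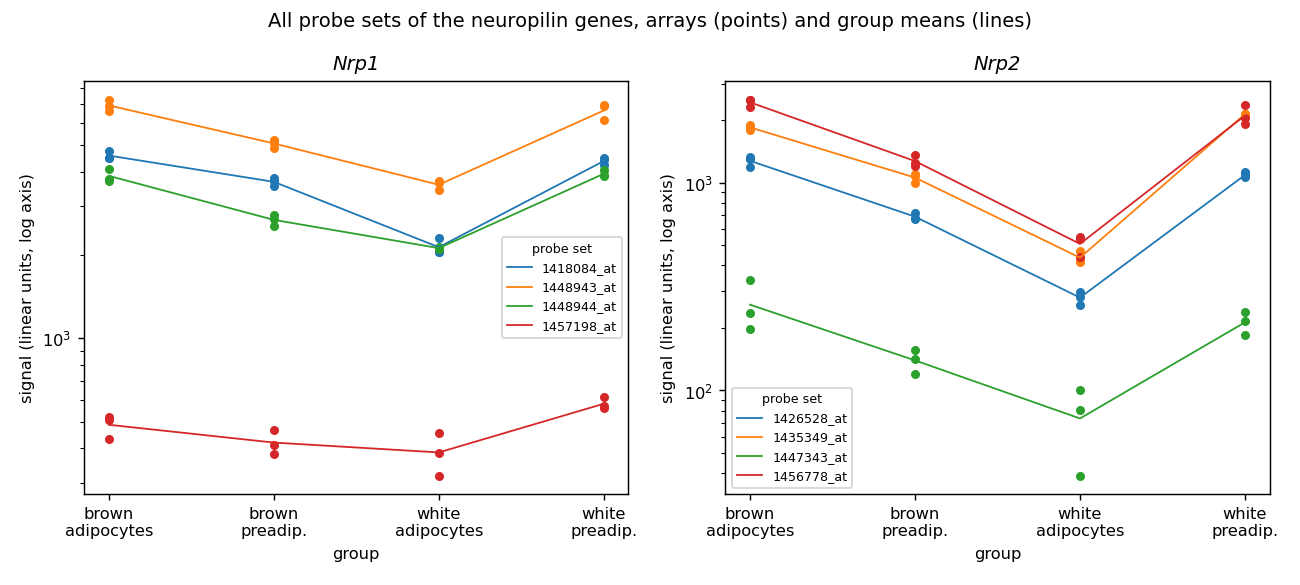
Signal (log axis) of the 4 Nrp1 and 4 Nrp2 probe sets in brown adipocytes, brown preadipocytes, white adipocytes and white preadipocytes; points are arrays, and lines join the group means of a probe set. All 8 probe sets are higher in brown adipocytes than in brown preadipocytes and lower in white adipocytes than in white preadipocytes.

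Netrin-1 had the reverse of the neuropilin pattern. Ntn1 signals were 158.8, 207.2 and 212.4 in brown adipocytes, against 471.7, 480 and 416.6 in brown preadipocytes. They were 603.4, 583.3 and 672 in white adipocytes, against 457.5, 436.2 and 376.3 in white preadipocytes. The preadipocytes of the 2 lines overlapped, at 456 ± 34.4 and 423 ± 42.1 (SD, n = 3 each), and the adipocytes lay on either side. Brown adipocytes were 2.37-fold lower than their preadipocytes (log2 -1.18, SE 0.119), and white adipocytes 1.46-fold higher than theirs (0.53, SE 0.119). The white call was lost when arrays were scaled on the hybridization controls, with a difference of 0.26. The second Ntn1 probe set was near background, between group means of 26.7 and 39.6, and gave a brown change of 0.45.

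Because these groups chose the members, the counts that follow are a description and nothing is read from them. In brown adipocytes against brown preadipocytes 2 of the 9 tested were called higher and 5 lower, where 27.2% of all genes were called higher, 31.6% lower and 58.7% in either direction. In white adipocytes against white preadipocytes 4 were called higher and 4 lower, where 30.1% of all genes were higher, 31.2% lower and 61.3% either. The brown and the white change differed for all 9 tested, 3 with the higher change in the brown line and 6 with the lower one, where 23.6% and 27.5% of all genes were called and 51.1% in either direction. In brown against white adipocytes 2 were higher and 5 lower, where 30.1% of all genes were higher, 29.5% lower and 59.7% either. In brown against white preadipocytes 2 were again higher and 5 lower, where 31.3% of all genes were higher, 23.8% lower and 55.1% either. Adipocyte and preadipocyte arrays were fully apart for 7 members in the brown line (65.2% of all genes) and for 8 in the white line (66.1%). Brown and white arrays were fully apart for 7 members between adipocytes (65.6%) and for 7 between preadipocytes (62.0%). Slit3, Robo1, Nrp1, Nrp2 and Ntn1 were called in both lines with opposite signs, and Sema3c with the same sign. For Robo1 the white call lay between dim signals and was lost in 19 of 26 alternative settings, so its opposite sign is not read as a result. Over all genes tested, 8.57% were called with opposite signs and 34.8% with the same sign. The median member change was -1.18 in the brown line, where the median of all genes was -0.03, and 0.40 in the white line, where it was 0.02.

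**Figure D3:**
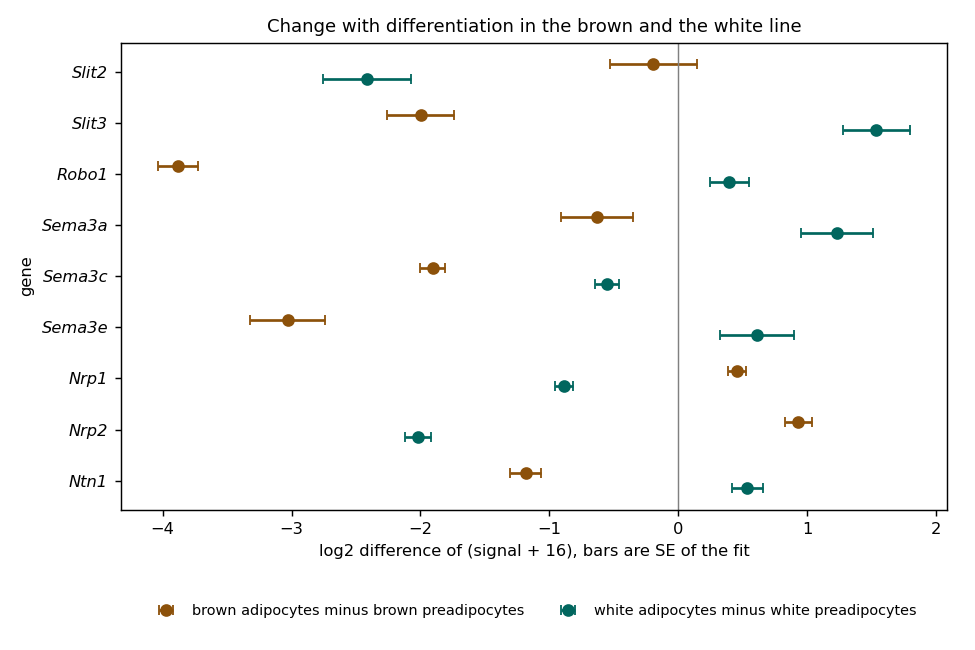
Log2 difference of (signal + 16) between adipocytes and preadipocytes in the brown line (upper point of each pair) and the white line (lower point) for the 9 genes tested; whiskers are the SE of the fit. Nrp1 and Nrp2 are right of 0 in the brown line and left of it in the white line. Slit3, Robo1, Sema3a, Sema3e and Ntn1 are the other way round, and Slit2 and Sema3c are left of 0 in both. The white Robo1 difference lies between dim signals. Those of Sema3e in the white line and of Sema3a and Slit2 in the brown line were not called.

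One RNA quality measure moved with differentiation. The beta-actin 3′ to 5′ signal ratio was 2.42 ± 0.0478 in brown adipocytes, against 1.49 ± 0.0626 in brown preadipocytes, and 2.25 ± 0.151 in white adipocytes, against 1.40 ± 0.0554 in white preadipocytes (SD, n = 3 each). The same ratio for Gapdh averaged 0.775 to 0.861 in the groups. Its part in the differences between adipocytes and preadipocytes was not tested. The preadipocyte markers (Dlk1, Pdgfra, Pdgfrb, Cd34 and Thy1) summed to 606.1 to 678.7 in brown adipocytes, 12260 to 12900 in brown preadipocytes, 8613 to 9494 in white adipocytes and 19500 to 21780 in white preadipocytes, and their part was not tested either. In the white line Dlk1, Pdgfrb and Thy1 were lower in adipocytes, while Pdgfra was higher (2970, against 2595 in preadipocytes). Cd34 was dim on every white array.

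The wider guidance pathway was followed with 79 further symbols, of which 77 were on the array and 66 tested. In brown adipocytes against brown preadipocytes 9 were higher and 27 lower, in all 36 of 66 (54.5%), and in white adipocytes against white preadipocytes 17 were higher and 20 lower, in all 37 (56.1%). Both shares are close to the 58.7% and 61.3% of all genes, and the median changes were -0.33 and -0.04. A set of 26 genes was called in both lines with the same sign, 9 higher and 17 lower in adipocytes, and 3 with opposite signs, Plxnc1, Plxnd1 and Nrcam. The same-sign share was 39.4%, where it was 34.8% of all genes, and the opposite-sign share 4.55%, where it was 8.57%. For Plxnc1 the white call lies between signals below the 40th percentile on all 6 arrays, and for Nrcam 2 of the 6 brown arrays were above it. The 2 changes themselves differed for 31 of the 66 (47%).

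Sema3g, a class 3 semaphorin that the list of members leaves out, had the largest rise of the 66 in the white line. It averaged 656 ± 264 in brown adipocytes, against 96.0 ± 34.8 in brown preadipocytes, and 4062 ± 229 in white adipocytes, against 8.26 ± 0.692 in white preadipocytes (SD, n = 3 each). The rise was at least 121-fold in the white line, where all preadipocyte arrays were below the 40th percentile (fitted log2 difference 7.39, SE 0.256, limma adjusted p = 3.18e-09), and 2.56 (SE 0.256, adjusted p = 1.09e-05) in the brown line. The difference between them was -4.83 (SE 0.362, adjusted p = 2.22e-06). Sema3b and Sema3f were called in neither line, with changes of -0.31 and -1.03 in the brown line and 0.16 and -0.22 in the white line.

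Of 13 membrane-bound and other semaphorins, 5 rose and 1 fell in the brown line and 6 rose and none fell in the white line. The share called was 46.2% in each line, against 58.7% of all genes in the brown line (27.2% higher, 31.6% lower) and 61.3% in the white line (30.1% and 31.2%). Sema4a, a transmembrane semaphorin, averaged 869 ± 53.2 in brown adipocytes, against 104 ± 23.2 in brown preadipocytes (log2 2.90, limma adjusted p = 7.53e-07), and 163 ± 15.4 in white adipocytes, against 28.9 ± 14.1 in white preadipocytes (2.03, adjusted p = 8.69e-06). Sema5a rose by 3.22 in the brown line (adjusted p = 3.51e-05) and by 0.99 in the white line (adjusted p = 0.0424). Its preadipocyte arrays, averaging 22.2 in the brown and 18.6 in the white line, were all below the 40th percentile. It passed the filter only through adipocyte arrays, 3 brown and 2 white. These p-values therefore rest on the groups that admitted it, and the sizes depend on the pseudocount. Sema4g rose by 0.54 in the brown line (adjusted p = 0.0235) and by 1.94 in the white line (adjusted p = 4.38e-06).

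Plexins, the signalling receptors of semaphorins, gave 5 falls and no rise among 9 in the brown line, and 3 falls and 2 rises in the white line. The share called, 55.6% in each line, is close to the 58.7% and 61.3% of all genes. Plxnd1, the receptor of Sema3E, averaged 930 ± 30.7 in brown adipocytes, against 2459 ± 95.4 in brown preadipocytes, and 1162 ± 50.4 in white adipocytes, against 610 ± 79.3 in white preadipocytes (SD, n = 3 each). Its change was -1.39 in the brown line and 0.92 in the white line, and the difference was -2.30 (SE 0.124, limma adjusted p = 2.39e-07). Like Sema3e it was highest in brown preadipocytes, but it was bright in all 4 groups. Plxnc1, the Sema7A receptor, averaged 29.0 ± 7.75 in brown adipocytes, against 183 ± 34.7 in brown preadipocytes (log2 -2.14, adjusted p = 6.61e-06), and was dim in both white groups. It passed the filter only through its 3 brown preadipocyte arrays, so this p rests on the group that admitted it, and as a bound it was at least 4.61-fold lower in brown adipocytes. Plxna1, a partner of neuropilin-1, fell in the white line (log2 -0.81, adjusted p = 4.89e-06) and had a brown change of 0.09 (adjusted p = 0.322).

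Of 7 genes tested in the list of netrins and their receptors, 3 were called in each line, all lower in adipocytes. That share, 42.9%, compares with 58.7% of all genes in the brown line (31.6% lower). In the white line 61.3% of all genes were called (31.2% lower). Neo1 (neogenin) changed by -1.05 in brown (limma adjusted p = 1.5e-06) and -1.36 in white cells (adjusted p = 1.53e-07). Unc5b, a repulsive netrin receptor, changed by -2.27 in brown (adjusted p = 3.6e-07) and -1.58 in white cells (adjusted p = 4.16e-06). Unc5c changed by -0.58 (adjusted p = 0.000512) and -2.53 (adjusted p = 7.27e-09). Dcc, the attractive receptor, was called in neither, at 0.48 in brown and -0.24 in white cells.

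The list of other neuropilin ligands and partners gave 2 rises and 4 falls in the brown line and 4 rises and 3 falls in the white line, among 9 tested. The share called was 66.7% in the brown line, against 58.7% of all genes (27.2% higher, 31.6% lower). In the white line it was 77.8%, against 61.3% of all genes (30.1% higher, 31.2% lower). Vegfa, the main angiogenic factor, rose in both lines, by 1.81 (SE 0.0976, limma adjusted p = 1.11e-07) in brown and 2.77 (SE 0.0976, adjusted p = 3.62e-09) in white cells, and Vegfb rose by 1.11 (adjusted p = 1.61e-05) and 0.88 (adjusted p = 7.78e-05). Vegfc and Vegfd, the lymphatic factors, fell in both. Vegfc changed by -0.95 in brown (adjusted p = 0.00228) and -2.12 in white cells (adjusted p = 5.94e-06). Vegfd changed by -2.12 in brown (adjusted p = 8.22e-08) and -0.78 in white cells (adjusted p = 0.000117). Pgf, a relative of Vegfa that also binds neuropilin-1, changed by -1.17 in the brown line (adjusted p = 0.00226), and its white change between dim signals was -0.32 (adjusted p = 0.295). Vegfc was also higher in the white line, at 46.3 ± 14.9 in brown and 608 ± 65.9 in white adipocytes, and 104 ± 30.3 in brown and 2693 ± 190 in white preadipocytes (SD, n = 3 each).

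**Figure D4:**
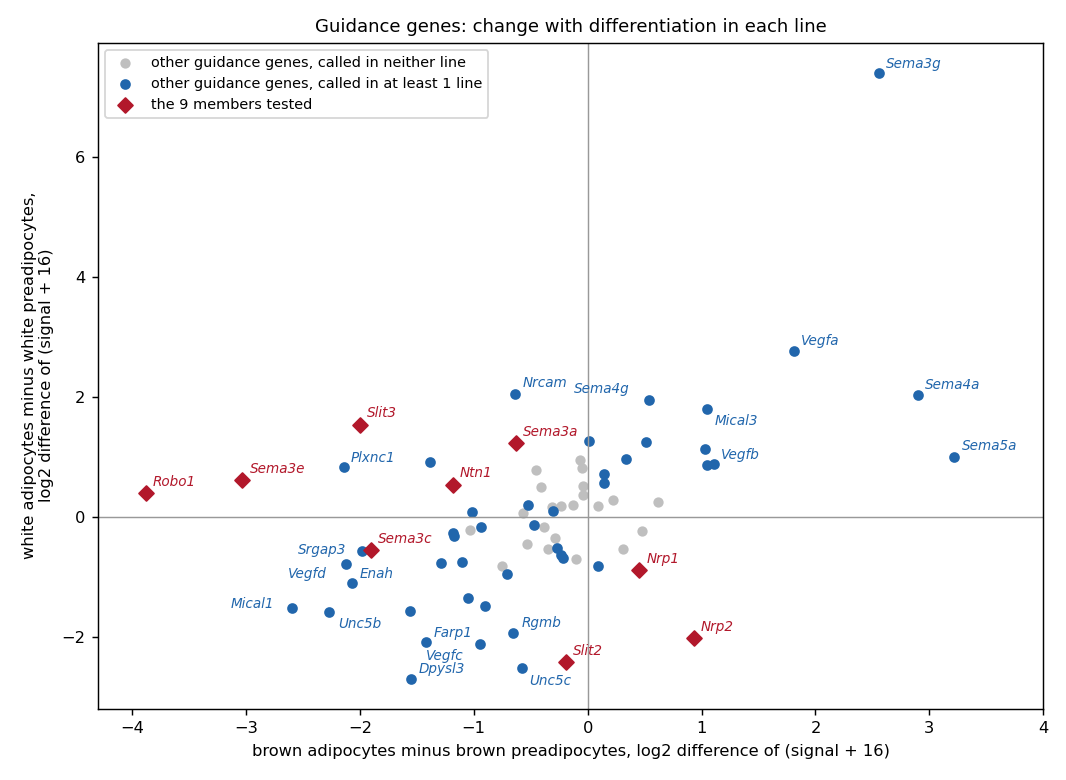
Change with differentiation in the brown line (horizontal axis) and the white line (vertical axis), log2 difference of (signal + 16), for the 9 members tested (diamonds) and the 66 other guidance genes (circles, grey where called in neither line). Nrp1 and Nrp2 lie at the lower right, Slit3, Robo1, Sema3e, Sema3a and Ntn1 at the upper left, and Sema3g at the top.

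Between the lines, 9 of the 66 were higher and 25 lower in brown than in white adipocytes, where 30.1% of all genes were higher and 29.5% lower. In brown against white preadipocytes 20 were higher and 15 lower, where 31.3% of all genes were higher and 23.8% lower. These splits depend on the scaling. The share of higher calls was 26.5% in the adipocytes as deposited, 41.4% with hybridization control scaling and 16.1% with quantile normalization or equal array medians, and in the preadipocytes it was 57.1% as deposited and 40.6% with equal array medians. No called member difference changed sign under these scalings. Ntn1 in brown against white preadipocytes, which was not called (0.11), was -0.03 with quantile normalization and -0.07 with equal array medians.

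Genes with the most similar levels were found over the 4 group means, as the smallest root mean square difference of centred log2(signal + 16) values, for each member whose means span at least 1 log2 unit. Robo1 was nearest to Sfrp4, a secreted Wnt antagonist (0.125), with means of 87.3 in brown adipocytes, 1223 in brown preadipocytes, 97.8 in white adipocytes and 54.4 in white preadipocytes. Sema3e was nearest to the chemokine gene Cxcl9 (0.12), and Slit2 to the chemokine gene Cxcl5 (0.411) and the surface antigen Thy1 (0.506). Slit3 was nearest to Nrn1, which encodes neuritin (0.173), at 1251, 3945, 13630 and 3904 in the same order of groups. Sema3a was nearest to Ctf1, encoding cardiotrophin 1 (0.159), and Sema3c to Ctla2a (0.109). Nrp2 was nearest to Mybl1, a transcription factor gene (0.125), and Ntn1 to Sgtb (0.0365), a co-chaperone gene. Nrp1 means span 0.95, and none was sought for it. With 4 points a small distance is a description only.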

How the data were processed

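RNA of 12 samples was hybridized to 1-colour 3′ expression arrays. The deposited intensity values are linear signals that, per the submitters' processing notes, came from Affymetrix Expression Console; no version is given in the sources used here, and the files show that each array was scaled to a 2% trimmed mean of 500. Of 45101 probe sets, 34958 had 1 gene symbol, 932 had several and 9211 were unnamed here. Each gene was represented by its brightest probe set, by the mean of the 12 arrays, and genes above the array's 40th percentile on at least 3 arrays were tested (13753 of 18194). Values were taken as log2(signal + 16) and fitted in R 4.3.3 with limma 3.58.1 (lmFit on 4 group means, eBayes, two-sided, Benjamini-Hochberg); the steps were tested on simulated data. All groups share 1 estimate of the spread. The members and lists were chosen with earlier results of these data known. Named are all members and, of the other guidance genes, up to 6 rises and 6 falls per comparison with the largest log2 difference. They were taken from genes that were called and had no array overlap. For the difference between the brown and the white change only the call was required. Sema3b, Sema3f, Neo1, Dcc and Rgma were named outside this rule, after their values were seen. The number of arrays limits the precision. Alternatives were the pseudocount, filter, probe set choice, scaling, threshold, replicate block and each array left out. Same-numbered replicates did not deviate together (18 pairs, correlations -0.0292 to 0.0668). Promoters are RefSeq's.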

Additional observations from a re-analysis of the deposited data

Results flagged for a closer look

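The change with differentiation differed between the brown and the white line, by the interaction term of the limma fit, for the 9 members tested. As log2 of the brown change minus the white change, the 3 positive values were 2.22 for Slit2, 1.34 for Nrp1, 2.95 for Nrp2. The 6 negative values were -3.53 for Slit3, -4.28 for Robo1, -1.86 for Sema3a, -1.35 for Sema3c, -3.64 for Sema3e, -1.72 for Ntn1. The members were chosen on these groups, so these values are a description.

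The same term was called for 31 of the 66 other guidance genes, 13 with a positive and 18 with a negative value, and 51.1% of all genes were called. Among the 21 that are named by the rule, the positive values were 0.87 for Sema4a, 1.14 for Dpysl3, 1.95 for Unc5c, 1.18 for Vegfc, 0.67 for Farp1, 1.27 for Rgmb, 2.23 for Sema5a, 0.91 for Plxna1, 0.41 for Abl1. The negative values were -4.83 for Sema3g, -0.96 for Vegfa, -2.68 for Nrcam, -1.40 for Sema4g, -0.74 for Mical3, -0.69 for Unc5b, -1.07 for Mical1, -2.96 for Plxnc1, -1.34 for Vegfd, -0.97 for Enah, -1.41 for Srgap3, -2.30 for Plxnd1. Those of Sema5a and Dpysl3, like that of Slit2, were not called with a pseudocount of 1. The terms of Sema4a, Farp1, Abl1, Vegfa, Mical3, Unc5b, Mical1, Vegfd and Enah were not followed singly under other settings. The one of Plxnc1 rests on brown preadipocytes, the group that brought it through the filter. That of Sema5a likewise rests on the adipocyte arrays that admitted it. The adjusted p-values of the 21 ran from 2.39e-07 (Plxnd1) to 0.0381 (Abl1). With 3 arrays in a group, single arrays far from the others were not tested for.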

How the results depend on the processing

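Of 1161 member values recomputed under the alternatives, other than single probe sets, 1128 stayed on their side of the threshold, 25 lost the call and 8 gained it. A sign changed in 7 of them, all uncalled: Slit2 in the brown line (3 settings, 0.01 to 0.10), Ntn1 (2 settings) and Slit3 (0.08) between preadipocytes, and Robo1 between adipocytes (0.01). The calls of members stayed between 6 and 9 in every comparison. Among the other guidance genes, the count in brown against white adipocytes was 22 at an adjusted p under 0.01, against 34 at 0.05, and 26 to 35 with 1 array left out. Among the interaction terms followed singly, those of Slit2 (1.64), Sema5a (2.88) and Dpysl3 (0.90) were no longer called with a pseudocount of 1. The Robo1 call in the white line was lost in 19 of 26 settings, 10 of them among the 12 that leave out an array, with values of 0.12 to 1.45.

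Other probe sets of the same gene turned the sign of 10 member values. The 6 that had been called were Robo1 in the white line (-0.0302), its interaction term (0.0116) and its brown change (0.0437), Ntn1 in the brown line (0.45) and its interaction term (0.30), and the Sema3c interaction term (0.13). The 4 uncalled ones were Slit2 in the brown line (0.26), Sema3e in the white line (-0.15), Robo1 between adipocytes (0.11) and Ntn1 between preadipocytes (-0.32). Arhgap39 in brown against white adipocytes turned to -0.34 when less specific probe sets were left out. The cause was not tested.

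Replicate numbers did not pair the samples. With the replicate block, 7 members were called in the white line, Robo1 being lost (0.40), and the other counts of members did not move; counts of other guidance genes were 30 to 38.

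Scaling on the hybridization controls gave a median of all genes of -0.22 in the brown line (-0.03 as deposited) and -0.23 in the white line (0.02), and a share of higher calls of 32% (46.3%) and 34.3% (49.1%). For brown against white cells the share became 60.6% in adipocytes (50.5% as deposited) and, with equal array medians, 42% in preadipocytes (56.8% as deposited).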

Other observations

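Of 15 tested genes that carry guidance signals inside the cell, 1 rose and 9 fell in the brown line, where 27.2% of all genes rose and 31.6% fell. In the white line 2 rose and 8 fell, where 30.1% of all genes rose and 31.2% fell. The share called was 66.7% in each line, against 58.7% and 61.3% of all genes. Enah, which encodes an actin regulator that acts downstream of Robo receptors, averaged 1878 in brown adipocytes, against 7952 in brown preadipocytes (log2 -2.07, limma adjusted p = 1.56e-08), and 3169 in white adipocytes, against 6844 in white preadipocytes (-1.10, adjusted p = 1.08e-06). Dpysl3, one of the collapsin response mediators of semaphorin signals, changed by -1.55 in the brown line (adjusted p = 0.000177) and -2.69 in the white line (adjusted p = 2.29e-06). Mical1, a redox enzyme that plexins use to take actin apart, changed by -2.59 (adjusted p = 1.58e-07) and -1.52 (adjusted p = 6.85e-06), while its relative Mical3 rose by 1.05 (adjusted p = 8.24e-07) and 1.79 (adjusted p = 1.14e-08). Srgap3, a Slit-Robo GTPase activator, changed by -1.98 (adjusted p = 2.43e-06) and -0.57 (adjusted p = 0.0113).

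Rgmb, which encodes a repulsive guidance molecule that binds neogenin, fell by 0.66 on the log2 scale in the brown line (adjusted p = 8.14e-05) and by 1.93 in the white line (adjusted p = 1.88e-08). Rgma rose by 1.24 in the white line (adjusted p = 0.000572), and its brown change was 0.52 (adjusted p = 0.0664).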
